A study of Mus musculus with 110 samples.

Results

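The neuronal disease change beyond the tissue change was examined in 16 of the 110 libraries of a RiboTag RNA-seq study of Huntington's disease mice. The study lowered mutant huntingtin in neurons or in astrocytes with zinc-finger protein (ZFP) repressors and sequenced ribosome-bound RNA of each cell type beside RNA of the tissue it came from. The 16 libraries were the whole RD and ND part of the set labelled n_ZFP_n_Rpl, whose cell type label is neurons. There were 4 pulldown (IP) libraries of RD, 4 IP libraries of ND, 4 tissue (Input) libraries of RD and 4 Input libraries of ND, joined into 8 IP and Input pairs by their replicate number. RD stands for R6/2 mice given Delta, and ND for NCAR mice given Delta. Delta is the control that the adeno-associated virus carried in place of the ZFP, so neither group received the repressor. The strain label of every library, ND included, is R6/2. The sources used here do not give the tissue, the age, the promoter of the virus or whether a replicate number stands for 1 animal or a pool.

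R6/2 mice carry a transgene with the start of the human huntingtin gene and an expanded CAG repeat, and they are a fast model of Huntington's disease. The projection neurons of the striatum are the cells hit hardest in the disease, and they lose the transcripts of their own identity, such as neuropeptides, dopamine receptors and signalling enzymes, early on. RiboTag puts an epitope tag on the ribosomal protein Rpl22 in a chosen cell type, so that an antibody brings down ribosomes, and the mRNA on them, mostly from those cells. A gene's disease change in the pulldown can follow that of the whole tissue, exceed it or run against it, and the comparison asks for which genes the 2 changes differ.

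The measure was (IP RD minus IP ND) less (Input RD minus Input ND) on the log2 scale, called the difference below. A positive difference means that the change in the neuron pulldown lay above the change in the tissue, whichever way each of them went. Levels are CPM, counts scaled to a common library size, and the value of a pair is the log2 of IP over Input of the same number. A gene was called at a Benjamini-Hochberg adjusted p under 0.05 over the 15909 genes tested, by edgeR's quasi-likelihood test with the pairs as blocks. Libraries held 39282271 to 43851872 counts in IP RD, 38366572 to 45579354 in IP ND, 26469987 to 34997537 in Input RD and 26721964 to 28032737 in Input ND. The summed level of 20 pan-neuronal genes was higher in the IP than in the Input. It was 1.37 to 1.45 times as high in RD, and 1.56 to 1.62 times in ND. The pulldown thus enriched neuronal RNA in all 8 pairs, and these 20 genes less so in the 4 RD pairs. The ratios of interneuron and cortical excitatory markers were also lower in every RD pair than in every ND pair. That of 44 projection neuron genes was not, at 1.44 to 1.78 in RD and 1.37 to 1.51 in ND. The same ratio of 18 microglial genes was 0.0851 to 0.0891 in RD and 0.0709 to 0.0826 in ND, and that of 22 astrocyte genes was 0.467 to 0.560 in RD and 0.465 to 0.621 in ND. That of 24 endothelial and mural genes was 0.155 to 0.201 in RD and 0.230 to 0.341 in ND.

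Changes between RD and ND were wide in each fraction by itself. In the neuron IP 4012 genes (25.2%) rose and 3991 (25.1%) fell, and in the Input 4877 (30.7%) rose and 2801 (17.6%) fell. Most of the change was shared, since 5643 genes changed the same way in both fractions and 30 changed in opposite ways. The difference passed the threshold for 3335 genes (21%), of which 701 (4.41%) were higher and 2634 (16.6%) lower in the IP than in the Input. The sizes were small, with a median of 0.272 among called genes and of 0.156 among all genes tested. A size of 1 or more was reached by 73 higher and 132 lower genes.

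The split between higher and lower calls rested on how the libraries were scaled. Trimmed-mean (TMM) scaling compares each library with a reference library, by default IP RD replicate 2, and shifted the median of all genes to -0.08. With Input ND replicate 3 as the reference the median was 0.06, with 2106 genes higher and 483 lower. RLE size factors gave 1089 higher and 984 lower at a median of -0.01, and TMM within each fraction gave 937 higher and 1278 lower. Across all 16 choices of reference the shift ran from -0.079 to -0.026 with RD libraries and from 0.007 to 0.065 with ND libraries. Genes that were called the same way under all 4 scalings numbered 699 higher (4.39%) and 483 lower (3.04%), and unless said otherwise "called higher" and "called lower" below mean these genes. Printed differences and adjusted p are those of default TMM.

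**Figure D1:**
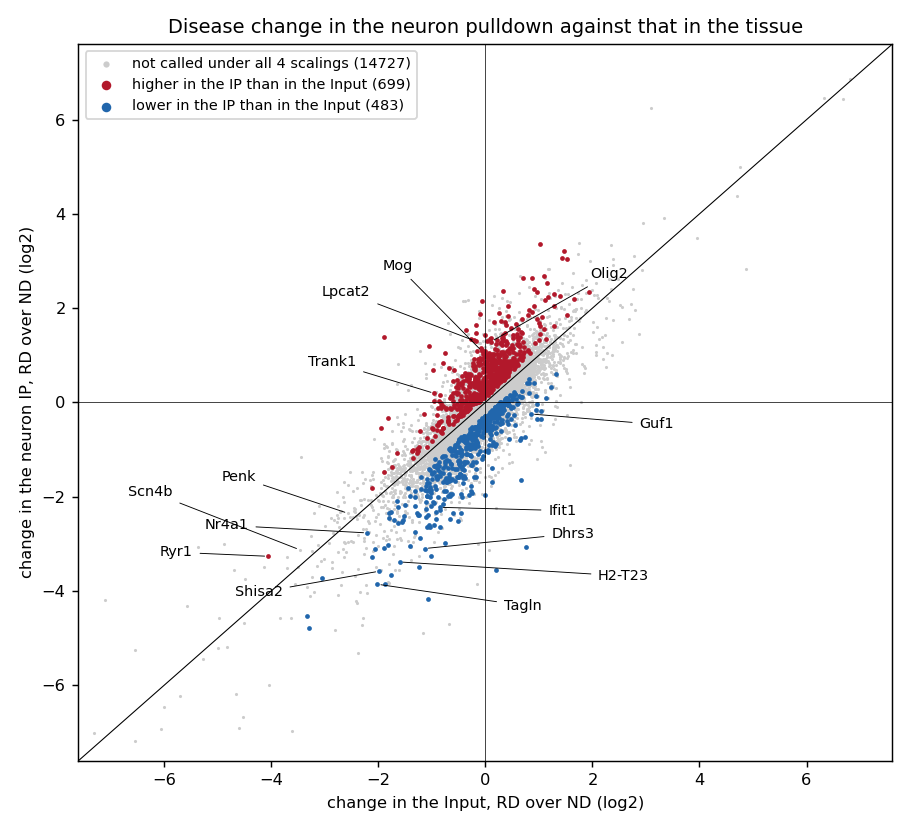
Each point is 1 of the 15909 genes tested, with its log2 change of RD over ND in the Input on the x axis and in the neuron IP on the y axis; the diagonal marks equal change. The 699 red genes lay above the diagonal and the 483 blue genes below it under all 4 scalings, while most genes followed the diagonal.

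Among the 699 genes called higher, 316 rose in the IP without a change past the threshold in the Input, 157 rose in both, 102 fell in the Input alone and 53 fell in both, with RLE scaling of the fractions. A further 51 passed in neither fraction, and 20 rose in the IP and fell in the Input. Among the 483 genes called lower, 186 fell in both fractions, 179 fell in the IP alone, 65 passed in neither, 42 rose in the Input alone, 8 fell in the IP and rose in the Input, and 3 rose in both. A gene called higher was thus most often one that rose in the pulldown alone, and a gene called lower most often one that fell further in the pulldown than in the tissue.

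Oligodendrocyte genes formed the group with the most members called higher of the 29 lists examined. These genes make and maintain the myelin sheath of axons, and they are not neuronal genes. Of 18 listed, 16 were called higher (88.9%, against 4.39% of all genes) and none lower, with a median difference of 0.88 against -0.08 for all genes. Every one of the 18 had a difference above 0, from 0.53 for Enpp2 to 1.12 for Mog. In the IP 11 of them rose and none fell, while in the Input none rose and 7 fell.

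Mog (chromosome 17), a protein of the outermost myelin layer, had 33.0, 27.7, 24.5 and 50.1 CPM in the IP RD libraries, against 13.8, 13.8, 16.2 and 20.03 CPM in the IP ND libraries. In the Input it had 71.4, 66.7, 75.5 and 86.3 CPM in RD, against 74.8, 68.6, 82.1 and 87.6 CPM in ND. All 4 RD pulldowns lay above all 4 ND pulldowns, whereas the Input groups overlapped. Its difference was 1.12 (SE 0.18, adjusted p = 0.00561).

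Cnp (chromosome 11), an enzyme of the inner myelin layer, had 259, 211, 216 and 371 CPM in the IP RD libraries, against 136, 122, 146 and 201 CPM in the IP ND libraries, with no overlap. Its Input levels were 410.4, 357, 449.5 and 474 CPM in RD, against 417, 405, 464 and 500.01 CPM in ND, which overlapped. The change thus lay in the pulldown, as for Mog, and the difference was 0.88 (SE 0.16, adjusted p = 0.0122).

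The other oligodendrocyte genes covered structural, enzymatic and regulatory roles. Mbp, the basic protein that holds myelin layers together, differed by 0.70. Myrf, the transcription factor that switches on myelin genes, differed by 1.03 (adjusted p = 0.0012), and Opalin, a membrane glycoprotein of oligodendrocytes, by 1.05 (adjusted p = 0.00359). Olig2, a lineage transcription factor listed with the precursor genes, had pair values of -1.54, -1.59, -1.96 and -1.12 in RD, against -2.51, -2.99, -2.94 and -2.34 in ND. Its difference of 1.16 (SE 0.20) was the largest on the precursor list, where 3 of 12 genes were called higher and 2 lower. Enpp6 (1.11) and Bcas1 (0.71), which mark newly formed oligodendrocytes, were the other 2 higher genes, and Ccnd1 (-0.90), a cell cycle cyclin, and Vcan (-0.64), a matrix proteoglycan of precursors, the 2 lower ones.

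The summed level of the 18 oligodendrocyte genes was 0.342 to 0.554 times as high in the IP as in the Input in RD, and 0.228 to 0.285 times in ND. These genes therefore stayed below their tissue level in every neuron pulldown, and closer to it in RD. The RD pairs also differed from the ND pairs in the pan-neuronal ratio given above, though the projection neuron ratios overlapped. The part of pulldown purity in the oligodendrocyte result was not tested. In bulk libraries fewer cells of a type and less RNA per cell cannot be told apart, which holds for the Input levels of these and of all genes below. Without the pair as a block 3 of the 18 passed, and 10 passed when the pair of ND replicate 3 was left out with RLE scaling.

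**Figure D2:**
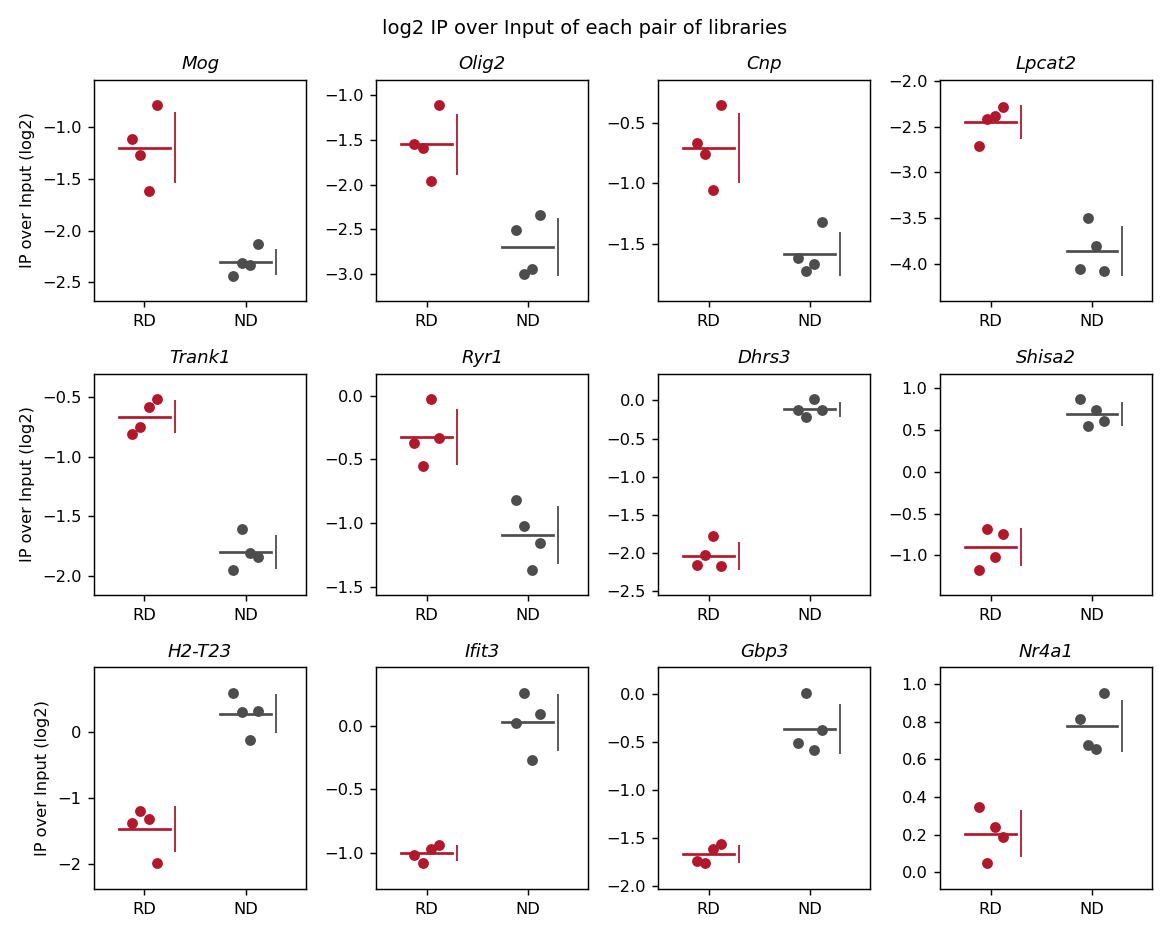
Points are the log2 of IP over Input of the 4 RD and the 4 ND pairs for 12 genes, with the mean as a horizontal line and ± 1 SD as a vertical bar. Mog, Olig2, Cnp, Lpcat2, Trank1 and Ryr1 were higher in all RD pairs than in all ND pairs, and Dhrs3, Shisa2, H2-T23, Ifit3, Gbp3 and Nr4a1 lower.

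Genes with a low share in neuronal ribosomes were called higher more often than others. The share was taken from the ND pairs of another neuron set, labelled hSyn, whose libraries took no part in the difference. Among 833 genes more than 4-fold lower in its IP than in its Input (log2 under -2), 10.1% were called higher and 1.2% lower. Among 1215 genes with a log2 ratio over 0.5 there, 1.48% were called higher and 6.01% lower. Genes that the neuron pulldown depleted in ND tissue were thus called higher more often than lower, and those that it enriched the other way round.

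The 10 largest positive differences among genes of at least 5 CPM ran from 1.47 to 1.12, and most of these genes sat far below their tissue level in the pulldown. Lpcat2 (chromosome 8), an enzyme that remodels membrane phospholipids, had 1.47, 1.92, 2.31 and 2.51 CPM in IP RD, against 0.648, 1.04, 0.773 and 0.889 CPM in IP ND. The Input held 9.93, 10.5, 12.3 and 12.5 CPM in RD and 11.7, 12.3, 11.5 and 15.9 CPM in ND. The IP groups did not overlap and the Input groups did, and the difference was 1.47 (SE 0.17, adjusted p = 8.39e-05).

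Calcrl, the receptor for calcitonin gene-related peptide and adrenomedullin, had 7.09, 7.06, 9.84 and 11.5 CPM in IP RD, against 1.81, 2.55, 2.34 and 3.24 CPM in IP ND. It rose in the Input as well, to 15.3 ± 0.645 CPM in RD against 11.4 ± 1.54 CPM in ND (SD, n = 4 each), and its difference was 1.39 (SE 0.18, adjusted p = 0.000485). Unc93b1, which carries Toll-like receptors to endosomes, differed by 1.14 (SE 0.19). The remaining high genes were Gjb1 (1.33), the gap junction protein connexin 32 of myelinating cells, Ppp1r14a (1.26), a phosphatase inhibitor, Nipal4 (1.24), a magnesium transporter, Tmem88b (1.23), a membrane protein, and Olig2 and Mog.

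Trank1 (chromosome 9), a large protein with ankyrin repeats, differed from the other high genes in that the change was in the tissue. It had 211, 225, 273 and 282 CPM in IP RD and 186, 238, 223 and 223 CPM in IP ND. In the Input the levels were 369.8, 379, 408 and 403 CPM in RD, against 718, 723, 782 and 796 CPM in ND. The Input groups stood far apart and the IP groups overlapped, with a difference of 1.14 (SE 0.08, adjusted p = 4.2e-05).

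At the other end, the 10 largest negative differences ran from -1.96 to -1.33. Dhrs3 (chromosome 4), an enzyme that turns retinaldehyde back into retinol and so limits retinoic acid, came lowest. It had 2.42, 2.52, 1.83 and 2.58 CPM in IP RD, against 18.5, 20.3, 21.6 and 19.9 CPM in IP ND. In the Input it had 11.01, 10.4, 6.41 and 11.8 CPM in RD, against 20.3, 23.7, 21.3 and 21.7 CPM in ND. Both fractions fell without overlap between groups, the IP by 3.10 and the Input by 1.13 on the log2 scale, and the difference was -1.96 (SE 0.10, adjusted p = 5.29e-08).

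Shisa2 (chromosome 14), a membrane protein that holds back Wnt and FGF receptors on their way to the cell surface, showed the same shape. Its IP levels were 1.68, 2.10, 1.81 and 2.24 CPM in RD, against 14.3, 17.9, 35.8 and 26.0 CPM in ND. Its Input levels were 3.83, 3.41, 3.71 and 3.80 CPM in RD, against 7.81, 12.2, 21.4 and 17.0 CPM in ND. Shisa2 was above its tissue level in all ND pulldowns and below it in all RD pulldowns, with a difference of -1.60 (SE 0.13, adjusted p = 4.61e-06).

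Tagln, an actin-binding protein best known from smooth muscle, also changed sides. Its pair values were -0.48, -0.98, -0.10 and -0.72 in RD, against 0.89, 1.40, 1.17 and 1.26 in ND, and its difference was -1.82 (SE 0.19, adjusted p = 4.06e-05). Of the 24 endothelial and mural genes, Tagln and the pericyte gene Rgs5 (-0.69) were called lower and none higher. The smooth muscle genes Acta2 (-0.52) and Myh11 (-0.30) of the same list did not pass.

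Bmp7, a secreted growth factor of the BMP family, had 1.39, 1.25, 2.59 and 1.34 CPM in IP RD, against 4.45, 4.92, 4.44 and 5.91 CPM in IP ND. Its Input averaged 7.31 ± 1.17 CPM in RD and 8.29 ± 1.39 CPM in ND (SD, n = 4 each), so the fall was in the pulldown, and the difference was -1.43 (SE 0.20, adjusted p = 0.000398). Irf8, a transcription factor of myeloid cells and of the interferon pathway, had pair values of -2.62, -2.30, -1.88 and -2.37 in RD, against -1.06, -1.10, -0.59 and -0.94 in ND. Its difference was -1.42 (SE 0.18). Of the 18 microglial markers, 1 was called higher (5.56%, against 4.39% of all genes) and 1 lower (5.56%, against 3.04%). The lower gene was Trem2 (-1.11), a lipid-sensing receptor. Trem2 was scarce, with means of 0.29 CPM in IP RD and 0.93 CPM in IP ND.

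The remaining genes among the 10 lowest belonged to the response to interferon, a signal that cells send out on meeting nucleic acids of viruses or of their own damaged compartments. Interferon activates transcription factors that bind the interferon-stimulated response element. Genes of the response include RNA-binding Ifit proteins, guanylate-binding proteins, antigen-presenting proteins and the ubiquitin-like Isg15. Of 25 listed genes tested, 10 were called lower (40% against 3.04% of all genes) and none higher, with a median difference of -1.04. In the IP 13 fell and none rose, though 3 fell with the replicate number as a block within the IP. In the Input 1 fell and none rose.

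Promoters of 3 genes called lower, Ifit1, Ifit3 and Gbp3, are shown because all carry the core of the interferon-stimulated response element. They are 300 bases around the annotated start, from RefSeq on GRCm38.p6, the build behind mm10. Capitals mark GAAANNGAA searched on both strands, where overlapping matches run together. All 3 genes lie on the plus strand, at chr19:34640639-34640938 for Ifit1, chr19:34583279-34583578 for Ifit3 and chr3:142559794-142560093 for Gbp3.
Ifit1: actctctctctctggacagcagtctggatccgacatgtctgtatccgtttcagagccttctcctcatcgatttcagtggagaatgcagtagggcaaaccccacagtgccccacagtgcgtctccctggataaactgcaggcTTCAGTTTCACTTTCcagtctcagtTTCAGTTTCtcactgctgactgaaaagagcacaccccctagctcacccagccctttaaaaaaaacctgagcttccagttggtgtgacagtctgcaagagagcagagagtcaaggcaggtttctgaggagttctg
Ifit3: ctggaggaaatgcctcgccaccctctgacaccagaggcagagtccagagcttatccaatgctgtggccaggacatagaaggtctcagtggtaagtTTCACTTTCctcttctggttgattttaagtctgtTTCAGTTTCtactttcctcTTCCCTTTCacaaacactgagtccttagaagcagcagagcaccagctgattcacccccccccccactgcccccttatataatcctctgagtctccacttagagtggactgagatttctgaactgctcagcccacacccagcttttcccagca
Gbp3: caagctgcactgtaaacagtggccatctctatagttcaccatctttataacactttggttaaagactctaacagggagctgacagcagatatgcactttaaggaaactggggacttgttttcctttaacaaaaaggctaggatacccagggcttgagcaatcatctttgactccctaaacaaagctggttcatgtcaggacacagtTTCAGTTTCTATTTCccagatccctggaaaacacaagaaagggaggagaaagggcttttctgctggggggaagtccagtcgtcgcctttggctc
The letters matched 3 times in the Ifit1 and Ifit3 windows and 2 times in the Gbp3 window shown. A second annotated Gbp3 window and that of Oasl2, which was also called lower, held none. They were present in 12 of the 17 listed genes with a promoter in the table (70.6%), and in 2638 of all 27025 genes there (9.76%). A gene counted if any of its promoter windows matched. The match describes the sequence and says nothing about which factor was bound in these mice.

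Ifit3, an RNA-binding protein that works with Ifit1, had 5.13, 5.04, 8.70 and 8.20 CPM in IP RD, against 18.4, 15.6, 7.61 and 39.3 CPM in IP ND. Input levels were 10.5, 10.7, 17.2 and 15.8 CPM in RD and 18.03, 13.0, 9.19 and 36.6 CPM in ND. The ND libraries ranged widely, with replicate 4 highest and replicate 3 lowest in both fractions, but IP and Input moved together from pair to pair. The pair values were -1.02, -1.08, -0.97 and -0.94 in RD, against 0.03, 0.26, -0.27 and 0.10 in ND. Ifit3 was thus near its tissue level in ND neurons and about 1 log2 unit below it in RD neurons, with a difference of -1.05 (SE 0.10, adjusted p = 2.15e-05).

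Gbp3, a guanylate-binding protein, had 2.22, 1.48, 2.95 and 2.42 CPM in IP RD, against 6.93, 9.11, 4.24 and 15.9 CPM in IP ND. Its pair values were -1.74, -1.75, -1.61 and -1.56 in RD, against -0.50, 0.02, -0.58 and -0.37 in ND, and its difference was -1.33 (SE 0.14, adjusted p = 4.33e-05). The RD pairs were the tighter group for both genes.

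Ifit1 had pair values of -1.47, -1.66, -1.27 and -0.76 in RD, against 0.46, -0.07, -0.22 and 0.12 in ND, a difference of -1.38 (SE 0.19). Further genes called lower were Isg15 (-1.89), Usp18 (-1.54), which removes Isg15 from proteins, Ifi44 (-1.45), Oasl2 (-1.33), Rtp4 (-1.31), Ifi27 (-1.08) and the RNA sensor Ifih1 (-0.66). Ifi44 and Rtp4 were scarce, with means of 0.40 and 0.78 CPM in IP RD. Isg15 was scarce too, with means of 0.25 CPM in IP RD and 0.49 CPM in Input RD. Its pair values overlapped, at -1.84, 0.16, -1.13 and -0.34 in RD against 1.38, 0.37, -0.82 and 1.12 in ND. Ifitm3, a membrane protein that blocks viral entry and no member of the list, differed by -1.44 (SE 0.17). Stat2 (-0.43) and Irf9 (-0.24), transcription factors of the interferon pathway, were not called.

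The interferon result leaned on how the libraries were paired and on which ND libraries were included. The summed level of the 25 genes was 120.0 to 151 CPM in IP RD and 106 to 419 CPM in IP ND, so the IP groups overlapped, while the ratio of IP to Input was 0.613 to 0.727 in RD and 0.816 to 1.196 in ND. Default TMM alone, with the pair as a block, called 13 of the 25 lower at a median of -1.04. The following counts also use default TMM and compare with those 13. Without the pair as a block none of the 25 passed, and with limma voom 2 passed. Leaving out ND replicates 1 and 4, whose pulldowns held the most Ifit1 mRNA, left 5 with a median of -0.73.

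**Figure D3:**
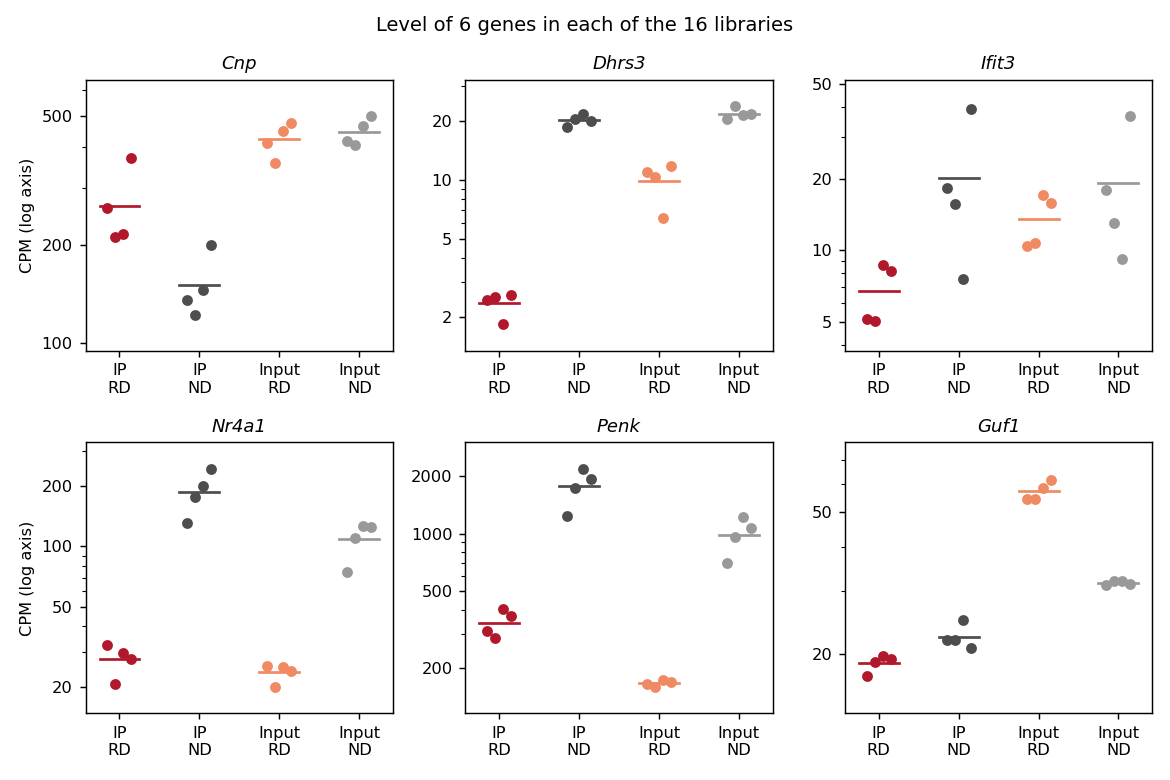
Levels of 6 genes in CPM on a log axis, in the IP RD, IP ND, Input RD and Input ND libraries; lines mark means. Dhrs3 and Nr4a1 fell in both fractions and further in the IP, Ifit3 lay lower in the IP than in the Input in RD, Guf1 rose in the Input and fell slightly in the IP, Cnp rose in the IP alone, and Penk fell alike in both.

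Genes of astrocyte reactivity, the programme that astrocytes switch on after injury or inflammation, were lower in the pulldown too. Of 28 tested, 7 were called lower (25%, against 3.04% of all genes) and none higher, with a median of -0.63. In the IP 20 fell and none rose, and in the Input 7 fell and 2 rose. With RLE scaling 12 fell and none rose in the Input. H2-T23 (chromosome 17), a non-classical antigen-presenting protein, had 2.81, 2.49, 2.12 and 1.15 CPM in IP RD, against 24.2, 19.3, 8.35 and 37.4 CPM in IP ND. The Input held 7.36, 5.79, 5.37 and 4.75 CPM in RD, against 16.1, 15.7, 9.12 and 29.99 CPM in ND. No groups overlapped in either fraction, and the difference was -1.75 (SE 0.17, adjusted p = 7.17e-05).

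Osmr, the receptor subunit for oncostatin M, had 1.19, 0.727, 1.26 and 1.34 CPM in IP RD, against 3.35, 6.50, 4.19 and 11.3 CPM in IP ND, and differed by -1.76 (SE 0.21, adjusted p = 8.39e-05). Cd44, the receptor for hyaluronan, differed by -0.90, Gbp2, a guanylate-binding protein that interferon also induces, by -0.93, and Sphk1, a lipid kinase, by -1.35. Sphk1 was scarce, at means of 0.54 CPM in IP RD and 0.69 CPM in IP ND. Its Input means were 1.13 CPM in RD and 0.57 CPM in ND, so its difference lay mostly in the Input. Gfap, the filament protein of astrocytes, had pair values of -0.92, -1.13, -0.41 and -0.64 in RD, against -0.23, 0.37, -0.02 and 0.41 in ND, and a difference of -0.90 (SE 0.21), but it was not called under all scalings. Vim (-0.89) was likewise not called under all of them.

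The list of 22 general astrocyte genes had no member called in either direction and a median of -0.03, and its ratio of IP to Input overlapped between RD and ND as given above. Without the pair as a block none of the 28 reactive genes passed, and default TMM alone called 12 lower, which became 5 to 10 when single pairs were left out. RLE scaling called 9 lower, and 5 to 8 with single pairs left out, the fewest without RD replicate 2 under both scalings. H2-T23 and Gbp2 are also genes that interferon induces, so the list is not independent of the interferon list.

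Activity-regulated genes, which neurons switch on within minutes to hours of calcium entry, fell in both fractions and further in the pulldown. All 28 tested fell in the IP and 25 fell in the Input, with median changes of -1.85 and -1.42. The difference was called lower for 6 of them (21.4%, against 3.04% of all genes) and higher for none, with a median of -0.36. Default TMM alone called 14 lower, RLE scaling 13, and leaving out single pairs with RLE scaling 5 to 12, the fewest without RD replicate 4.

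Nr4a1 (chromosome 15), a nuclear receptor induced by activity, had 32.2, 20.7, 29.6 and 27.4 CPM in IP RD, against 131, 177, 200.4 and 242 CPM in IP ND. In the Input it had 25.3, 20.1, 25.02 and 24.1 CPM in RD, against 74.3, 111, 127 and 125 CPM in ND. The fall was large in both fractions, and the difference of -0.56 (SE 0.08, adjusted p = 0.000467) was small beside it. Fos, the founding immediate early gene, had pair values of 0.37, 0.14, 0.11 and 0.35 in RD, against 0.60, 0.72, 1.09 and 0.95 in ND, a difference of -0.61 (SE 0.11). Jun (-0.48), Dusp6 (-0.58), a phosphatase of the MAP kinase pathway, Pim1 (-0.73), a kinase, and Ier5 (-0.36) were the other genes called lower.

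Egr1, a zinc-finger factor of the same programme, fell by 2.08 in the IP and by 2.00 in the Input, and its difference of -0.08 did not pass (adjusted p = 0.19). Npas4, a factor of neurons alone, had 4.49, 3.74, 9.18 and 8.26 CPM in IP RD, against 7.37, 50.0, 71.2 and 71.8 CPM in IP ND, and a difference of -0.39 (adjusted p = 0.358). ND replicate 1 was far below the other ND libraries for Npas4 and the lowest for Fos and Nr4a1. Without that pair 13 genes of the list passed under default TMM, so it did not decide the count. Arc, a synaptic protein whose mRNA travels to dendrites, differed by -0.28 under default TMM and was not called under all scalings. Without the pair as a block none of the 28 passed.

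Projection neuron genes of the striatum fell far, and nearly alike in both fractions. Of 44 tested, 37 fell in the IP and 38 in the Input, with medians of -1.40 and -1.43. The difference had a median of 0.12, against -0.08 for all genes. It lay above 0 for 35 of the 44, against 5158 of all 15909 genes. It was called higher for 4 (9.09%, against 4.39% of all genes) and lower for 2 (4.55%, against 3.04%). RLE scaling alone called 13 higher and 3 lower, against 1089 and 984 of all 15909 genes. The RLE medians were 0.19 for the list and -0.01 for all genes. Leaving out single pairs with RLE gave 1 higher without ND replicate 2 and up to 22 higher without RD replicate 1. Penk (chromosome 4), the precursor of enkephalin in indirect pathway neurons, had 312, 286, 405 and 374 CPM in IP RD, against 1238, 1726, 2176 and 1910.0 CPM in IP ND. In the Input the levels were 166, 159, 174 and 169 CPM in RD, against 703, 964, 1214 and 1064 CPM in ND. It fell by 2.36 in the IP and by 2.56 in the Input, and the difference of 0.20 did not pass (adjusted p = 0.0751).

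The same held for Pde10a, the main phosphodiesterase of these neurons (0.24, adjusted p = 0.0757), Ppp1r1b, which encodes DARPP-32 (0.13, adjusted p = 0.24), Drd2, the dopamine D2 receptor (0.23, adjusted p = 0.063), Adora2a, an adenosine receptor of indirect pathway neurons (0.24, adjusted p = 0.143), and Scn4b, a sodium channel subunit (0.31, adjusted p = 0.072). With Input ND replicate 3 as the TMM reference each of these passed, and 22 of the 44 were called higher, against 2106 of all 15909 genes. The list median was then 0.27, against 0.06 for all genes. For the genes named here the call thus depended on a shift of the scale.

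Exceptions that held under all scalings were few. Ryr1 (chromosome 7), a calcium release channel, had 4.95, 4.96, 5.13 and 4.87 CPM in IP RD, against 37.5, 48.4, 56.2 and 49.6 CPM in IP ND. Its Input levels were 6.43, 7.31, 5.23 and 6.15 CPM in RD, against 66.4, 98.6, 145 and 111 CPM in ND. Ryr1 fell by 3.27 in the IP and by 4.06 in the Input, so the fall in the tissue exceeded that in the pulldown, with a difference of 0.77 (SE 0.14, adjusted p = 0.00556). Meis2 (0.39), a homeobox factor, Cnr1 (0.35), the cannabinoid receptor, and Gng7 (0.30), a G protein subunit, were the other 3 higher genes. Pde1c (-0.44), a calmodulin-dependent phosphodiesterase, was 1 of the 2 lower genes.

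Markers of cortical excitatory neurons had a lower summed IP over Input ratio in all RD pairs than in all ND pairs. The median difference of the 12 tested was -0.67, and 11 of them lay below 0. Slc17a7, the vesicular glutamate transporter of cortical neurons, had pair values of 0.41, 0.38, -0.45 and -0.64 in RD, against 0.75, 0.76, 0.77 and 0.80 in ND. RD replicates 3 and 4 stood below their tissue level, all other pairs above it, and the difference of -0.84 (SE 0.27) did not pass (adjusted p = 0.0751). The ratio of IP to Input of the summed 12 cortical markers was 1.10 to 1.37 in RD, against 1.497 to 1.64 in ND. Emx1 (-0.92), a cortical homeobox factor, was called lower and none higher.

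**Figure D4:**
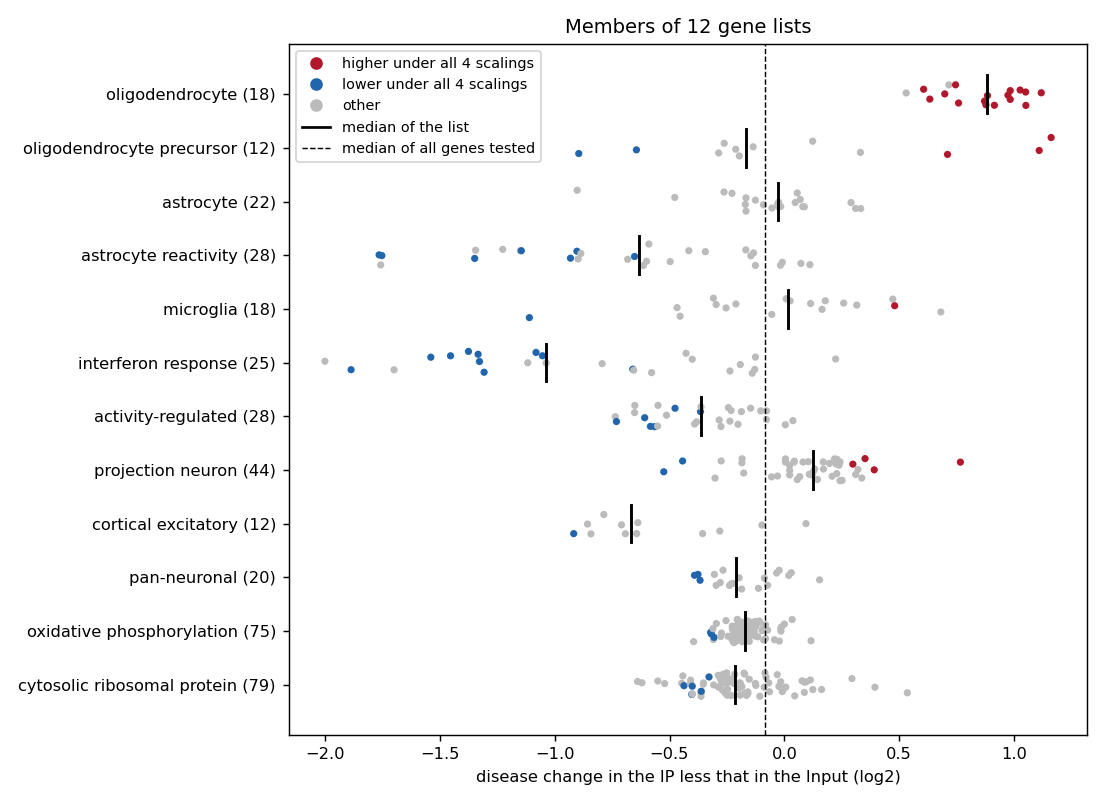
Differences (log2) of the members of 12 gene lists, with the list median as a line and the median of all genes as a dashed line; red and blue members were called higher and lower under all 4 scalings. The oligodendrocyte genes lay above the dashed line throughout, and the interferon and reactivity genes mostly below it.

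Changes that ran in opposite directions in neurons and tissue were rare. Under both TMM and RLE scaling 7 genes rose in the IP and fell in the Input, and 8 fell in the IP and rose in the Input. Guf1 (chromosome 5), a mitochondrial translation factor, had the largest such difference among the genes given here. It had 17.4, 19.0, 19.8 and 19.3 CPM in IP RD, against 21.9, 21.8, 24.9 and 20.7 CPM in IP ND. In the Input it had 54.5, 54.4, 58.5 and 61.5 CPM in RD, against 31.3, 32.1, 31.97 and 31.4 CPM in ND. The tissue thus gained Guf1 mRNA while the pulldown lost a little, with a difference of -1.10 (SE 0.07, adjusted p = 1.41e-07).

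Paxbp1, a protein that binds the factors Pax3 and Pax7, fell by 0.41 in the IP and rose by 0.30 in the Input (difference -0.72, SE 0.07). Tet2, an enzyme that oxidises methylcytosine, fell by 0.22 and rose by 0.31 (difference -0.54). Man2c1, a cytosolic mannosidase (-0.51), and Rpl32, a protein of the large ribosomal subunit (-0.40), did the same, though Rpl32 has processed copies in the genome among which reads could be split.

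Rngtt, the mRNA capping enzyme, did the opposite. It had 42.9, 42.2, 47.5 and 43.8 CPM in IP RD, against 30.3, 31.1, 33.3 and 32.4 CPM in IP ND. Input levels were 45.3, 46.5, 44.1 and 44.8 CPM in RD, against 46.5, 48.1, 51.9 and 51.5 CPM in ND, and its difference was 0.60 (SE 0.06, adjusted p = 2.16e-05). Dock5 (0.88), an exchange factor for Rac, Qdpr (0.60), which recycles tetrahydrobiopterin, Tmem229a (0.57) and Tulp4 (0.39) also rose in the IP and fell in the Input.

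Gene groups that most neurons use in bulk had small differences, and many of their calls depended on the scale. The shares called lower below compare with 3.04% of all genes, and those called higher with 4.39%. Of 75 genes of oxidative phosphorylation, default TMM called 45 lower, but 3 (4%) were called lower under all scalings and none higher, with a median of -0.17. Of 79 cytosolic ribosomal protein genes 5 (6.33%) were called lower (27 under default TMM) and none higher. Of 31 proteasome genes none was called either way (11 lower under default TMM). Of 23 glycolysis genes 2 (8.7%) were lower, Pgk1 and Ldha, and 1 (4.35%) higher, Slc2a1, the glucose transporter of the blood-brain barrier. Of 34 genes of the cytoskeleton and axonal transport 5 (14.7%) were lower, with Tuba1b (-0.39) and Stmn2 (-0.37) the lowest of them. In the same list 1 (2.94%) was higher, the kinesin Kif5c (0.23).

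Among neuronal function lists the share called lower was above the 3.04% of all genes in 3 by over 5 percentage points. Of 20 pan-neuronal genes 3 were called lower (15%), Elavl4 (-0.39), Uchl1 (-0.38) and Stmn2, and none higher. RLE scaling alone called 8 of them lower and default TMM 13, and their median was -0.21 against -0.08 for all genes. Synaptic vesicle genes had 2 higher and 2 lower of 32, with Sv2c (0.33) and Stx1a (-0.58) the largest each way. Potassium channels had 2 higher and 5 lower (11.4%) of 44, with Kcna4 (0.30) and Kcnip1 (-0.64) the largest. Glutamate and GABA receptors had 2 higher and 1 lower of 36, where the lower gene was Grm2 (-1.01). Genes of cyclic nucleotide and G protein signalling had 2 higher and 4 lower (10.8%) of 37. Interneuron markers had 1 lower and none higher of 20, where the lower gene was Crh (-1.15), at a mean of only 0.28 CPM in IP RD.

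Stress and metabolic lists had 3 members or fewer called in each direction. The integrated stress response had 3 higher of 22 (13.6%, against 4.39% of all genes), namely Vldlr, Psat1 and Mthfd2, and none lower. Default TMM alone called 3 higher and 5 lower in that list. Its median was -0.15, against -0.08 for all genes, and 15 of the 22 lay below 0, so the list as a whole was not shifted up. Complement and antigen presentation genes had 2 lower of 16 (12.5%, against 3.04%), C1ra (-1.49) and Serping1 (-1.27), and none higher. Both were scarce, with means of 0.61 and 1.10 CPM in IP RD, and the pair values of each overlapped between RD and ND. Cholesterol synthesis had 2 higher and 1 lower of 25, and chaperones 1 each way of 30. Replication-dependent histones had 2 higher of 40 and none lower, long noncoding RNAs 1 lower of 18, developmental transcription factors 1 each way of 16, and choroid plexus and ependymal genes 1 higher of 11.

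The difference was not called for either of the 2 genes tied to the model and the method. Htt, the mouse huntingtin gene, had 488, 483, 497 and 459 CPM in IP RD and 505, 515, 459 and 473 CPM in IP ND. The Input held 379.9, 382, 381 and 371 CPM in RD and 359.7, 372, 336 and 349 CPM in ND. The difference of -0.12 passed under default TMM (adjusted p = 0.0341) but was 0.03 with Input ND replicate 3 as the reference. It also turned positive under TMM when any RD pair was left out, where the reference was Input ND replicate 4. With RLE scaling its sign did not reverse when any pair was left out. Rpl22 had 1106, 638, 712 and 615 CPM in IP RD, against 2043, 2486, 2557 and 2630.2 CPM in IP ND. It had 552, 273, 197 and 218 CPM in Input RD, against 567, 761, 885 and 941 CPM in Input ND. Rpl22 thus fell far in both fractions, without overlap between RD and ND in either. The 79 cytosolic ribosomal protein genes had median changes of only -0.03 in the IP and 0.19 in the Input. The bearing of the fall of Rpl22 on the pulldowns was not tested. The difference of Rpl22, at -0.25 (SE 0.20), did not pass (adjusted p = 0.42).

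The same contrast was computed in 3 groups of libraries that took no part in the difference above. In the hSyn neuron set (3 RD and 4 ND pairs) 76 genes (0.476%) were higher and 61 (0.382%) lower. With RLE scaling 93.3% of the genes called higher above lay above 0 there, against 51.8% of all genes, and 85% of those called lower lay below 0, against 48% of all genes. The correlation of the 2 sets of differences across 15623 genes was 0.33, where genes are not independent and each set shares its libraries over all genes. Of the 18 oligodendrocyte genes 8 were higher there with a median of 0.64. None of the interferon or activity-regulated genes passed there, with medians of -0.63 and 0.17, so the activity-regulated list had the opposite sign.

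The difference between the neuron sets was itself tested and passed for 3 genes (0.0183%). They were Dhrs3 (-1.04), Col6a1 (-0.72), a collagen, and Cdk5rap2 (0.83), a centrosome protein, all at an adjusted p of 0.0269. Dhrs3 was lower in both sets, by -1.96 here and by -0.85 in the hSyn set (adjusted p = 0.0143). Trank1 (1.19) and Guf1 passed in the hSyn set as well.

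Under the neuronal ZFP (RZ, R6/2 with the ZFP, against NZ, NCAR with the ZFP, 4 pairs each) 127 genes (0.805%) were higher and 274 (1.74%) lower. Genes called higher above lay above 0 there in 90.5% of cases (47.6% of all genes) and those called lower below 0 in 81% (52.1% of all genes), with RLE scaling. Medians over the genes were closer to 0 than without the ZFP, at 0.55 for the oligodendrocyte list, -0.20 for the interferon list and 0.05 for the activity-regulated list. That of the reactivity list, at -0.62 with 8 genes lower, was almost the same. The difference between Delta and ZFP was tested gene by gene and passed for 149 genes (0.921%). It passed for none of the 18 oligodendrocyte genes, 1 of the 25 interferon genes and 2 of the 28 activity-regulated genes. A change of a list as a whole was not tested. Among the 149 genes were Dhrs3 (-1.44), Shisa2 (-1.13), Nr4a1 (-0.61), Guf1 (-0.51) and Trank1 (0.72). Each of these was closer to 0 under the ZFP and also past the threshold with RLE scaling.

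In the astrocyte pulldown (3 RD and 4 ND pairs of the set n_ZFP_a_Rpl) 339 genes (2.12%) were higher and 368 (2.3%) lower. With RLE scaling 80.5% of the genes called higher above lay above 0 there and 60.9% of those called lower lay below 0, against 51.2% and 48.5% of all genes. The oligodendrocyte list had a median of 0.41 with 1 gene higher, the interferon list -0.26 with 1 lower, and the reactivity list 0.04 with 2 higher and 1 lower. Trank1 (1.48), Calcrl (0.89) and Guf1 (-0.83) passed in the same direction as in neurons, while Shisa2 (0.77) and Bmp7 (0.70) passed in the opposite direction. The difference between the pulldowns was tested and passed for 577 genes (3.53%), Shisa2 (-2.34), Dhrs3 (-2.13) and Bmp7 (-2.10) among them.

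**Figure D5:**
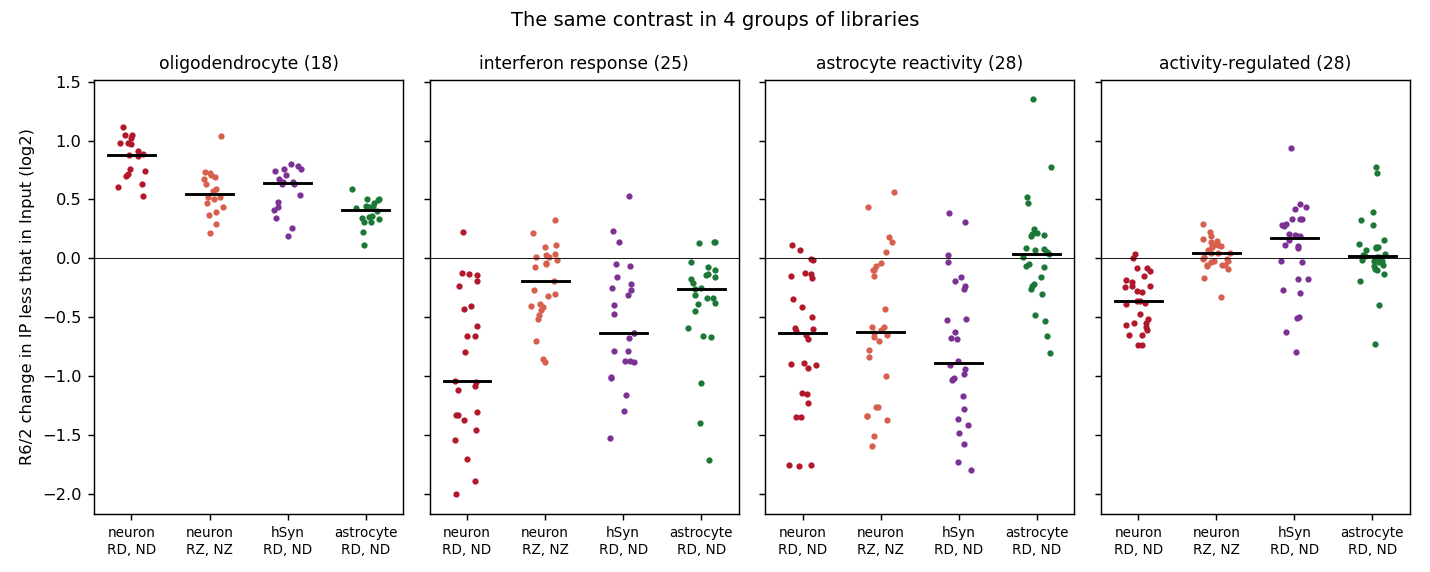
Differences (log2) of the members of 4 gene lists in the RD and ND neuron pairs, the RZ and NZ neuron pairs, the hSyn neuron pairs and the astrocyte pairs, with list medians as lines. The oligodendrocyte medians lay above 0 in all 4 groups of libraries (0.88, 0.55, 0.64 and 0.41), while the activity-regulated median was negative in the RD and ND neuron pairs only (-0.36).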

How the data were processed

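RNA of neuron pulldowns and of the tissue they came from was sequenced after TruSeq library preparation, per the labels' protocols. Reads were aligned to mm10 and counted per gene, and STAR and HTSeq are named per the submitters' processing notes, with versions, parameters and strand setting not given in the sources used here. The authors deposited whole-number counts per gene in a table of all samples. Of its 24060 rows, 4 with a repeated symbol were dropped, and no column of per-sample values was left unused. Reads that fit near-identical copies, overlapping genes or antisense genes may have been split or dropped by the counting, which was not checked.

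Counts were fitted with edgeR 4.0.16 in R 4.3.3 (robust quasi-likelihood test, TMM scaling, filterByExpr with a minimum count of 10 and a minimum total of 15, Benjamini-Hochberg adjustment at 0.05), with a term for each of the 8 pairs and the IP effect within RD and within ND. Changes within a fraction came from an unpaired fit of the same 16 libraries in 4 groups, and CPM were computed from TMM-scaled library sizes. The numbers paired IP with Input, since the deviations of same-numbered libraries from their group means correlated at 0.57 to 0.82 in all 8 pairs and each IP was closest to its own Input (11434 genes of at least 5 CPM). Across conditions, same-numbered RD and ND libraries correlated at 0.20 to 0.34 in the IP, above 0.1 in all 4 pairs, and at -0.02 to 0.22 in the Input. These values were not set beside those of different numbers, so they cannot show whether the numbers pair RD with ND. No 2 libraries agreed within sampling noise (lowest chi-square per degree of freedom 5.39 over 24 library pairs). P-values measure the spread between these libraries, which may be technical in part. The scripts were tested on simulated data.

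Named genes were the 10 highest and 10 lowest called differences at a mean of at least 5 CPM with no overlap between RD and ND pairs, 5 genes with opposite changes each way, and up to 3 genes per direction and list. Htt, Rpl22, Fos, Egr1 and Npas4 were always given, and symbols of unnamed, pseudogene, small RNA, Xist and Y-linked kinds were passed over. Other named genes, among them Mbp, Cnp, Isg15, Col6a1, Myrf, Ifit3, Usp18, Nr4a1, Arc, Jun, Osmr, Vim, Penk and Slc17a7 and the list members given only by their difference, were chosen after their values were seen, and 5 genes are not reported here. The contrast and the 29 gene lists were chosen with earlier results of these data known. Symbols were matched to RefSeq for 15848 of the 15909 genes tested. Alternatives were RLE size factors, TMM within each fraction, DESeq2 1.42.0, limma 3.58.1 voom, no filter, no pair block, a fold threshold, all 32 neuron libraries with and without the ZFP, and each replicate left out. The rule that a gene be called under all 4 scalings, the other TMM reference, leaving out ND replicates 1 and 4, and leaving out pairs with RLE were added after seeing the data.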

Additional observations from a re-analysis of the deposited data

Results flagged for a closer look

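Among 310 groups of 4 pair values tested, 22 had a lone highest or lowest value past Dixon's 95% critical value, where chance flags about 1 in 20 groups. In RD replicate 3 the log2 IP over Input stood apart as the highest for Drd2 (0.86), Arpp19 (0.52) and Arc (0.41) and as the lowest for Elavl4 (-0.11) and Gnai2 (-0.67). In the other RD pairs it stood apart as the lowest for Gbp2 (-1.25) and Grm7 (-0.13) of replicate 1, Usp18 (-2.25) of replicate 2 and Nrgn (0.25) of replicate 4, and as the highest for Sox6 (-0.49) and Myh11 (-0.86) of replicate 2 and Unc93b1 (-2.12) and Serping1 (-0.59) of replicate 4. ND replicate 4 was the highest for Opalin (-2.19), Ppp1r14a (-1.92) and Slc2a1 (-0.83). In the other ND pairs the flagged values were the lowest for Penk (0.82) and Vip (-0.55) of replicate 1 and Hist1h1c (0.59) of replicate 2 and Cdk5rap2 (-1.36) and Trem2 (-3.96) of replicate 3, and the highest for Elavl4 (0.66) of replicate 3.

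The difference changed between Delta and ZFP, by a test of that change (Delta less ZFP, default TMM), for 17 genes given by name. It was lower under Delta for Dhrs3 (-1.44), Shisa2 (-1.13), Col6a1 (-1.06), Cd44 (-0.86), Ifi27 (-0.67), Nr4a1 (-0.61), Dusp6 (-0.52), Guf1 (-0.51), Chordc1 (-0.49), Man2c1 (-0.45), Arpp19 (-0.39), Nos1 (-0.39), Acat2 (-0.38) and Rian (-0.28), and higher for Trank1 (0.72), Cdk5rap2 (0.41) and Grm7 (0.29). Cd44, Ifi27, Chordc1, Nos1, Acat2 and Rian did not pass with RLE scaling.

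It also differed between the neuron and the astrocyte pulldown (neuron less astrocyte) for 38 genes given by name. Lower in the neuron pulldown were Shisa2 (-2.34), Dhrs3 (-2.13), Bmp7 (-2.10), Ccnd1 (-1.33), Ifitm3 (-1.29), Osmr (-1.21), Cd44 (-1.12), Ifit1 (-1.03), Rgs5 (-0.93), Ifi27 (-0.92), Ifit3 (-0.86), Gbp2 (-0.84), Col6a1 (-0.83), Ifih1 (-0.76), Vcan (-0.74), Dusp6 (-0.65), Pgk1 (-0.50), Ier5 (-0.49), Jun (-0.48), Nos1 (-0.45), Chordc1 (-0.40), Man2c1 (-0.35), Srebf2 (-0.35) and Pde1c (-0.34). Higher in the neuron pulldown were Nipal4 (0.92), Ppp1r14a (0.90), Tm7sf2 (0.88), Hist1h1a (0.62), Lss (0.60), Psat1 (0.60), Meis2 (0.53), Gnai2 (0.52), Tmem229a (0.51), Penk (0.37), Sv2c (0.36), Kcna4 (0.35), Cplx2 (0.31) and Grm7 (0.29). Of these Ifih1 did not pass with RLE scaling. Between the n_ZFP_n_Rpl and hSyn neuron sets it differed for Dhrs3 (-1.04), Col6a1 (-0.72) and Cdk5rap2 (0.83). What lies behind these differences was not tested.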

How the results depend on the processing

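With RLE size factors 1089 genes were higher and 984 lower for the difference (701 and 2634 by default TMM), 3569 and 3416 in the Input (4877 and 2801), 135 and 49 in the hSyn set (76 and 61), 186 and 145 under the ZFP (127 and 274), 74 and 58 for Delta less ZFP (38 and 111) and 426 and 236 in the astrocyte set (339 and 368). The split moved by over 10 percentage points with the scaling, from 21% of calls higher under default TMM to 42.3% under TMM within each fraction (937 and 1278), 52.5% under RLE and 81.3% with Input ND replicate 3 as the TMM reference (2106 and 483). DESeq2 called 897 higher and 798 lower, with 1543 genes left without an adjusted p, and a test against a 1.5-fold change called 5 and 13. Limma voom, no filter and all 32 libraries kept the counts within 1.5 times.

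The replicate block decided most calls. Without the pair as a block 87 genes were higher and 134 lower (39.4% higher), all 221 of them also called the same way with it. Without it, calls were 17 and 16 in the hSyn set, 0 and 8 under the ZFP, 0 and 0 for Delta less ZFP, 84 and 65 in the astrocyte set, 16 and 34 for neuron less astrocyte and 0 and 0 between the neuron sets. With the number as a block within a fraction 3548 and 3708 genes changed in the IP and 3302 and 3431 in the Input, and calls changed for 14 of 155 named genes in the IP, Ifit1, Ifit3, Oasl2, Usp18 and Ifi44 among those lost, and for 18 in the Input.

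Leaving out ND replicates 1 and 4 left 396 higher and 1381 lower. Leaving out single pairs gave 559 to 1808 higher and 325 to 2194 lower for the difference, and the TMM reference was Input ND replicate 4 when any RD pair was dropped. With RLE size factors the same left-out pairs gave 896, 824, 827 and 907 lower without ND replicates 1 to 4, and 1055 higher and 739 lower, 672 lower, 560 lower and 496 lower without RD replicates 1 to 4. Ranges over left-out replicates were 2947 to 4618 higher in the Input, 19 to 137 higher and 2 to 165 lower in the hSyn set, 53 to 557 and 69 to 150 under the ZFP, 22 to 104 and 22 to 125 for Delta less ZFP, 241 to 410 and 75 to 336 in the astrocyte set, 112 to 438 and 131 to 407 for neuron less astrocyte, and 0 to 4 and 0 to 5 between the neuron sets. Of the named genes the difference of Htt reversed, to 0.027 with Input ND replicate 3 as the reference. Under TMM without RD replicates 1 to 4 it became 0.023, 0.029, 0.009 and 0.034, within a range of -0.122 to 0.034. Counting error is small at these depths, and for genes of a few CPM it adds to the spread between pairs.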
